A study of Mus musculus with 12 samples.

Results

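Inflammatory cytokine signalling was followed through the preparation of mouse hepatocytes with 10 genes of the 32285 in the matrices, chosen by name for their roles in the pathway, with earlier results of these data known. They were the chemokine ligands Cxcl1, Cxcl2, Cxcl10 and Ccl2, the receptor chains Il1r1 and Il6ra, the transducer Stat3 and the inhibitors Nfkbia, Tnfaip3 and Socs3. Single-nucleus RNA-seq was done on 3 sample types from each of 8 mice: snap-frozen Liver, a Cell Suspension made from the liver by collagenase perfusion, and Primary Hepatocytes, the part of that suspension that attached to plates and was kept in culture overnight. By the methods, the Liver sample was tied off and frozen after the liver had been perfused with buffer and before collagenase. All 24 samples came from wild-type mice, labelled C57BL6J but named C57BL/6NTac in the methods, which describe chow-fed males of 10 to 12 weeks, so the 3 sample types shared genotype and diet and differed in what was done to the tissue. The methods give dexamethasone and insulin as additions to the overnight culture medium, and name them for no step before culture. Comparisons with Primary Hepatocytes therefore take in these additions as well as attachment, time in culture and a medium with less serum than the plating medium. They also take in detachment with trypsin-EDTA before freezing, and the separate parts of all these were not tested. Nuclei were tagged with hashtag antibodies, 4 samples were joined in each of 6 pools, and reads were counted as spliced, unspliced or ambiguous RNA. All 3 kinds of UMI (unique molecular identifier, a tag that marks 1 captured RNA molecule) were summed here for each gene, sample and cell type and are given as CPM, the gene's count scaled by all UMIs of that sum. In such sums, fewer cells that express a gene and less RNA per cell cannot be told apart.

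NF-kB is a transcription factor that waits in the cytoplasm bound to inhibitors such as the product of Nfkbia, and that receptors for IL-1, TNF and bacterial products release by having the inhibitor destroyed. It then drives chemokine genes and also its own brakes, Nfkbia and Tnfaip3. IL-6 acts in hepatocytes through its receptor chain, encoded by Il6ra, and STAT3, which switches on the acute phase genes for which the liver is known and Socs3, whose product blocks the receptor and so closes the loop.

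The promoters of 9 of the 10 genes were in the RefSeq table (build GRCm38.p6), which held no entry for Ccl2. Stretches of up to 250 bases before the annotated start were searched on both strands for the NF-kB consensus and for the STAT motif TTCNNNGAA. The NF-kB consensus was found for 6 of the 9 genes (Il1r1, Cxcl1, Cxcl2, Cxcl10, Tnfaip3 and Nfkbia), which is 6 of their 11 windows, beside 3.90% of all 32851 windows of the same length. The Il1r1 window, chr1:40266336-40266585, lies at a start inside the annotated gene, which begins at 40225080. The windows with a match of Socs3 and Tnfaip3, both on the minus strand, also lie inside the genes as GENCODE draws them, with 5′ ends at 117970047 on chromosome 11 and 19015657 on chromosome 10. The STAT motif was found in 1 of the 11 windows, that of Socs3, beside 7.02% of all windows. A match is a description of the letters, not evidence of a bound site. The stretches of 5 genes that the results below turn on are printed 5′ to 3′ on the gene's strand, with each motif match in capitals.
Cxcl1, chr5:90890995-90891240 (+): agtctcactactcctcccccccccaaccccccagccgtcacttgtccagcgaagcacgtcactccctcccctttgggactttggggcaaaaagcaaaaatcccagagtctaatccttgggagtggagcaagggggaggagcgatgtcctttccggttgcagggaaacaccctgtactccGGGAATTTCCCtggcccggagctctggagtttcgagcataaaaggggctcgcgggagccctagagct
Cxcl2, chr5:90903649-90903870 (+): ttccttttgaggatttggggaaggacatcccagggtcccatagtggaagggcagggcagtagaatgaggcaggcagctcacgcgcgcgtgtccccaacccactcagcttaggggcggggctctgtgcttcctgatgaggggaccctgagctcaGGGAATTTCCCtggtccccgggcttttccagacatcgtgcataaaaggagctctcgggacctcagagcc
Cxcl10, chr5:92348890-92349139 (-): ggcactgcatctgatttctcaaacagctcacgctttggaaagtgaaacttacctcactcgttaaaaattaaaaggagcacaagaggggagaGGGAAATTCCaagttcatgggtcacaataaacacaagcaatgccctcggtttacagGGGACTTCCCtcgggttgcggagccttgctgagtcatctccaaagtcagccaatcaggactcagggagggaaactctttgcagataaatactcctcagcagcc
Nfkbia, chr12:55492648-55492897 (-): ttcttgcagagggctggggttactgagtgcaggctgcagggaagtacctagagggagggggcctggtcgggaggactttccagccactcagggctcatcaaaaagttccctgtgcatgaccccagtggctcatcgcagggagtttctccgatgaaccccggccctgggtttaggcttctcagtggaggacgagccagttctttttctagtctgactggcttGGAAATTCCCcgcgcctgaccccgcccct
Socs3, chr11:117969452-117969616 (-): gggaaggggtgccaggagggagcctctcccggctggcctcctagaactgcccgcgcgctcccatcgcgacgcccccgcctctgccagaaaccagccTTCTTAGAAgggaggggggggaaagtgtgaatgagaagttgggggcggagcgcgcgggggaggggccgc
Cxcl1 and Cxcl2, neighbours on chromosome 5, carried the same letters at the match, and in both it read as the consensus on either strand. Cxcl10 held a pair of matches on the gene's strand.

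The table of nuclei held 53467 nuclei. There were 15166 hepatocyte nuclei from Liver, 13339 from Cell Suspension and 16283 from Primary Hepatocytes, with 2104087 to 29023569 UMIs per sample. Endothelial nuclei numbered 2474, 1152 and 1809, Kupffer nuclei 919, 342 and 77, and stellate nuclei 880, 148 and 192, so the smaller types were measured with far fewer UMIs. Barcodes were shared with a nucleus of another pool by 676 nuclei. The summed level of 12 hepatocyte markers in the hepatocyte nuclei had medians of 14940 CPM (Liver), 18770 CPM (Cell Suspension) and 3655 CPM (Primary Hepatocytes). Cultured clusters carry no cell type in the deposited table and were divided by marker lists, with hepatocyte as the default. In the 5 cultured clusters so counted as hepatocyte (0, 1, 8, 14 and 17) the biliary list, of all marker lists, stood highest relative to the other clusters, and hepatocyte markers summed to 2943 to 7734 CPM, below every fresh hepatocyte cluster. Pools 1 and 6 held no Primary Hepatocytes, pools 3 and 4 no Liver, and the other 2 pools all sample types, so pool and sample type overlap only in part.

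Changes are given as log2 fold changes ± SE. They were tested with the quasi-likelihood model of edgeR, with Benjamini-Hochberg adjusted p-values over all genes tested in that cell type (8 samples per group unless stated), and a change was called at an adjusted p below 0.05. The SE was worked back from that test, as the absolute log2 change divided by the square root of its F statistic. It is a rough guide where a group held few UMIs. The 3 comparisons share groups and are not independent of each other. Between Liver and Cell Suspension, the hepatocyte nuclei carried more Cxcl1 and Socs3 RNA in every mouse. In culture Socs3 was back near its Liver level while Ccl2, Cxcl2, Tnfaip3, Cxcl10 and Nfkbia stood above every Liver sample in CPM. The share of all genes whose groups did not overlap was not counted, for this or any comparison below. CPM is not divided by the normalisation factors treated below, of 1.24 to 1.57 in Primary Hepatocytes and 0.801 to 0.999 in Liver. The Nfkbia gap, 21.7 against 21.3 CPM, is too narrow to hold once divided by them. That of Cxcl10 was 2.87 against 2.30 CPM, and whether it holds after that division was not tested. The receptor chains and Stat3 had smaller log2 changes, whose sign depended in part on how libraries were scaled.

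In Cell Suspension against Liver, 6 of the 10 genes were called higher in hepatocyte nuclei, where 8.15% of all 26778 genes tested were called higher, and 0 of the 10 were called lower, where 14.2% of all genes were. Their median log2 change was 1.19, beside 0.02 over all genes tested. With pool as a covariate 2 of the 10 were called, Cxcl1 and Socs3, beside 6591 of all 26778 genes in either direction. Without mouse 1 or without mouse 4 there were 3, and calls over all genes were not counted in those fits. For culture against Liver, 6 of the 10 were called higher in Primary Hepatocytes, beside 27.4% of all genes, and 1 was called lower, beside 26.3%. The median was 1.48, beside 0.10 over all genes. Against Cell Suspension, 4 were called higher in Primary Hepatocytes, beside 26.9% of all genes, and 4 lower, beside 23.5%. The median was -0.03, beside 0.02 over all genes.

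**Figure D1:**
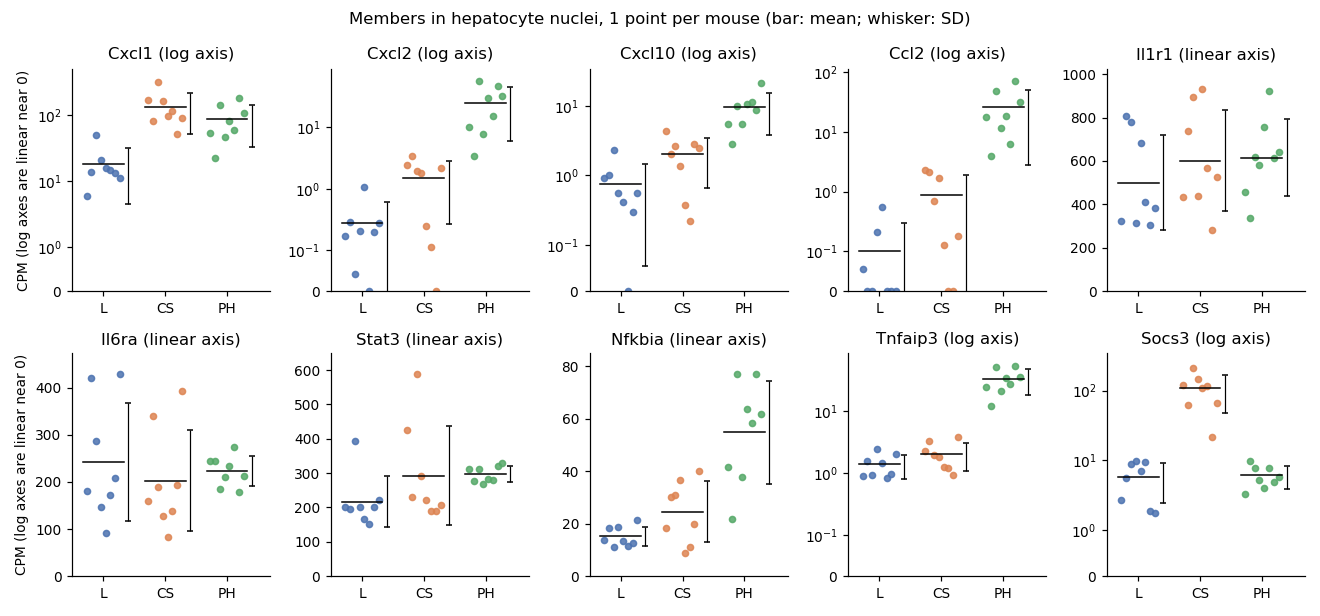
Level of each of the 10 genes in hepatocyte nuclei, in CPM, with 1 point per sample (8 each of Liver, Cell Suspension and Primary Hepatocytes) the mean as a bar and the SD as a whisker. Il1r1, Il6ra, Stat3 and Nfkbia are on linear axes and the rest on log axes that turn linear near 0, where whiskers that pass below 0 are cut off. The Cell Suspension samples of Socs3 lie between 21.9 and 214 CPM, all above the Liver samples and the Primary Hepatocytes samples. The Primary Hepatocytes samples of Ccl2 lie between 3.93 and 71.8 CPM, all above both other groups in CPM, which is not divided by normalisation factors.

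Cxcl1 encodes a chemokine that draws neutrophils through the receptor CXCR2. In hepatocyte nuclei its level ran from 5.84 to 50.3 CPM in Liver with a median of 14.1, from 50.4 to 312 CPM in Cell Suspension with a median of 106, and from 21.9 to 180 CPM in Primary Hepatocytes with a median of 69.0. The Cell Suspension samples all lay above the Liver samples, the lowest of them only just, while Primary Hepatocytes overlapped both other groups. Cxcl1 rose in Cell Suspension against Liver by 3.03 ± 0.44 on the log2 scale (adjusted p = 4.73e-06), in 8 of 8 mice. The adjusted p was 0.0524 when only pools 1 and 6 were used, with a log2 change of 2.21. It was also higher in Primary Hepatocytes than in Liver, by 1.64 ± 0.42 (adjusted p = 0.00126), in 8 of 8 mice, but was not called with pool as a covariate (1.05, adjusted p = 0.159). Against Cell Suspension, Cxcl1 was lower in Primary Hepatocytes, by -1.38 ± 0.41 on the log2 scale (adjusted p = 0.00559), a call lost when libraries were scaled by total UMIs (-0.65, adjusted p = 0.157).

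Cxcl2 encodes a second CXCR2 ligand, whose close resemblance to Cxcl1 and Cxcl3 means that reads shared among them could not be traced in the deposited counts. In hepatocyte nuclei it ranged from 0 to 1.07 CPM in Liver with a median of 0.203, from 0 to 3.41 CPM in Cell Suspension with a median of 1.88, and from 3.36 to 56.2 CPM in Primary Hepatocytes with a median of 22.6. Primary Hepatocytes stood above every Liver sample and, but for the lowest of them, above every Cell Suspension sample, while Liver and Cell Suspension overlapped. The rise in Primary Hepatocytes was 5.69 ± 0.62 against Liver (adjusted p = 3.03e-09) and 3.24 ± 0.55 against Cell Suspension (adjusted p = 8.26e-06) on the log2 scale. Cell Suspension was higher than Liver by 2.45 ± 0.73 (adjusted p = 0.0139), on 114 and 47 UMIs in all, and was not called with pool as a covariate (1.55, adjusted p = 0.196) or without mouse 1 (2.20, adjusted p = 0.0504).

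Ccl2, which encodes the main attractant of monocytes, was nearly absent from fresh hepatocyte nuclei. Its level ran from 0 to 0.551 CPM in Liver, with 5 of 8 samples at 0, from 0 to 2.30 CPM in Cell Suspension with a median of 0.439, and from 3.93 to 71.8 CPM in Primary Hepatocytes with a median of 18.1. In CPM no Primary Hepatocytes sample overlapped either fresh group, with 3.93 against 2.30 CPM where Cell Suspension came closest. The normalisation factors were 1.24 to 1.57 in Primary Hepatocytes and 0.736 to 0.920 in Cell Suspension. Whether the gap to Cell Suspension holds after division by them was not tested. Ccl2 was higher in Primary Hepatocytes than in Liver by 6.90 ± 0.73 on the log2 scale (adjusted p = 1.31e-09) and higher than in Cell Suspension by 3.88 ± 0.60 (adjusted p = 2.06e-06), both in 8 of 8 mice. Cell Suspension was called higher than Liver, by 3.02 ± 0.93 (adjusted p = 0.017), but on 78 UMIs against 20, and the call was lost with pool as a covariate (1.69, adjusted p = 0.274), without mouse 1 (2.55, adjusted p = 0.0868) and without mouse 4 (2.87, adjusted p = 0.0598).

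The Ccl2 and Cxcl2 UMIs of fresh nuclei lay mostly in pools that also held Primary Hepatocytes. Cell Suspension samples pooled with cultured cells held 78 Ccl2 UMIs in 6 samples, at 0.126 to 2.30 CPM, while the 2 samples in pools without them held 0 UMIs, which allows up to 0.271 CPM over the pair (3 counts, counting error only). The 2 Liver samples pooled with cultured cells held 19 Ccl2 UMIs, and the other 6 held 1. For Cxcl2, Cell Suspension samples held 113 UMIs in pools with cultured cells and 1 in pools without. RNA outside nuclei, read from barcodes of at most 100 UMIs, held 26.6, 19.8 and 28.2 CPM of Ccl2 in pools 3, 4 and 5. In pools 1, 2 and 6 it held 0 Ccl2 UMIs, on 491238, 577085 and 244200 UMIs in all. Pool 2 held 1 Primary Hepatocytes sample, with Ccl2 at 11.7 CPM in its hepatocyte nuclei. On so few UMIs, 0 cannot be told apart from a low level. With pools 1 and 6 alone, Cxcl2 was not called in Cell Suspension against Liver and its log2 change was -0.52. The part of free RNA or of misassigned nuclei in the Ccl2 and Cxcl2 calls of Cell Suspension was not tested.

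Cxcl1 and Socs3 were also measured in pools without cultured cells. In those pools the 2 Cell Suspension samples held Socs3 at 21.9 and 118 CPM, above the 6 Liver samples of those pools at 1.77 to 9.32 CPM. Cxcl1 stood at 50.4 and 115 CPM in those 2 Cell Suspension samples and at 5.84 to 50.3 CPM in the 6 Liver samples. Both genes had higher medians in Cell Suspension samples pooled with cultured cells, at 128 CPM for Cxcl1 and 115 CPM for Socs3 in 6 samples. RNA outside nuclei held Cxcl1 at 29.5 to 118 CPM in pools with Primary Hepatocytes and 20.4 to 20.5 CPM in pools without, and Socs3 at 13.9 to 42.9 CPM and 6.11 to 20.5 CPM, and its part in their levels was not tested. With pools 1 and 6 alone, 1 of the 10 genes was called in Cell Suspension against Liver, Socs3, with a log2 change of 3.87 (adjusted p = 0.0061), while Nfkbia gave 0.06 and Cxcl10 0.02. Of all 23190 genes tested in that fit 1496 were called in either direction.

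**Figure D2:**
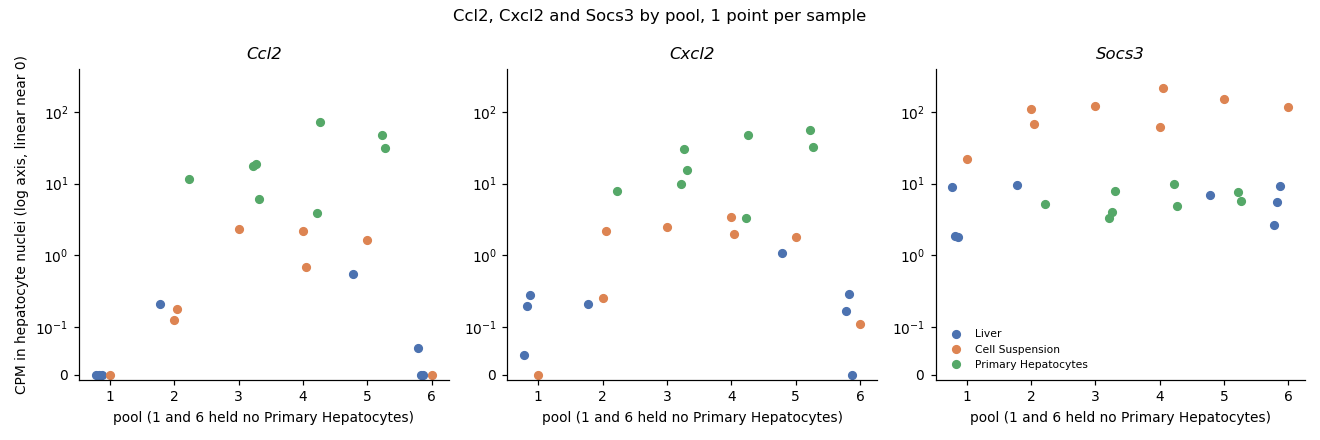
Level of Ccl2, Cxcl2 and Socs3 in hepatocyte nuclei, in CPM on axes that turn linear near 0, for each sample by the pool it was run in, coloured by sample type; pools 1 and 6 held no Primary Hepatocytes. The Cell Suspension samples of pools 1 and 6 sit at 0 for Ccl2, while their Socs3 levels are 21.9 and 118 CPM.

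Cxcl10 encodes a chemokine for T cells that interferons and NF-kB induce together. In hepatocyte nuclei its level ran from 0 to 2.30 CPM in Liver with a median of 0.558, from 0.223 to 4.43 CPM in Cell Suspension with a median of 2.27, and from 2.87 to 21.6 CPM in Primary Hepatocytes with a median of 9.34. In CPM Primary Hepatocytes lay above every Liver sample, by 2.87 against 2.30 where closest, and overlapped the Cell Suspension samples. Whether that gap to Liver holds after division by the normalisation factors was not tested. The rise against Liver was 3.07 ± 0.49 on the log2 scale (adjusted p = 2.64e-06) and against Cell Suspension 1.56 ± 0.47 (adjusted p = 0.00637), both in 8 of 8 mice. With the nuclei of all cell types summed, the change against Cell Suspension was 0.76 and not called (adjusted p = 0.173). Cell Suspension was higher than Liver by 1.51 ± 0.55 (adjusted p = 0.0466), a call kept under 10 of 21 alternatives. In culture the 1% of hepatocyte nuclei with most of a gene's UMIs held 69.0% of Cxcl10, 48.0% of Cxcl2, 28.8% of Ccl2 and 16.4% of Cxcl1, beside 40.6% of Socs3 and 25.8% of Tnfaip3. Such a share also grows as a gene's UMIs get fewer. These genes had 1100, 2757, 2849 and 9524 UMIs, beside 658 and 3744, so the shares do not rank genes by spread alone.

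Il1r1 encodes the signalling receptor of IL-1. Liver samples held 304 to 807 CPM with a median of 395, Cell Suspension samples 281 to 933 CPM with a median of 547, and Primary Hepatocytes samples 336 to 922 CPM with a median of 615. The 3 groups overlapped over nearly their whole ranges. Il1r1 was not called against Liver in Cell Suspension (log2 change 0.40 ± 0.26, adjusted p = 0.318) or in Primary Hepatocytes (-0.27 ± 0.26, adjusted p = 0.424). It was called lower in Primary Hepatocytes than in Cell Suspension, by -0.67 ± 0.27 (adjusted p = 0.0363), although its CPM was higher there in 5 of 8 mice, and the change was 0.03 and not called when libraries were scaled by total UMIs, and 0.19 and not called with spliced UMIs alone. The call held under 13 of 21 alternatives and was lost without mouse 1, 2, 3, 4 or 5 (-0.67 to -0.53, adjusted p 0.0525 to 0.111) and with all nuclei summed (-0.52, adjusted p = 0.0872).

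Il6ra encodes the IL-6 binding chain of the receptor. It was measured at 91.3 to 429 CPM in Liver with a median of 195, from 82.4 to 392 CPM in Cell Suspension with a median of 174, and from 179 to 275 CPM in Primary Hepatocytes with a median of 223. The cultured samples lay within the range of the fresh ones. Cell Suspension was not called against Liver (log2 change -0.14 ± 0.26, adjusted p = 0.765), although the CPM was lower in 8 of 8 mice. Il6ra was called lower in Primary Hepatocytes than in Liver, by -0.66 ± 0.26 (adjusted p = 0.0343), in 4 of 8 mice by CPM, a call kept under 9 of 21 alternatives, with -0.11 on the total-UMI scale. With pool as a covariate the change was -0.47 and not called (adjusted p = 0.369). The 2 Liver samples pooled with Primary Hepatocytes held 91.3 and 146 CPM, below every cultured sample. The other 6 held 171 to 429 CPM.

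Stat3 encodes the transcription factor that carries the IL-6 signal to the nucleus. It stood at 152 to 395 CPM in Liver with a median of 202, at 189 to 590 CPM in Cell Suspension with a median of 226, and at 269 to 330 CPM in Primary Hepatocytes with a median of 297. The groups overlapped, and both fresh groups were topped by mouse 3. The log2 change in Cell Suspension against Liver was 0.59 ± 0.23 (adjusted p = 0.0686), a change called under 7 of 22 alternatives, among them the mouse as a block (0.53, adjusted p = 0.0244), DESeq2 (0.67, adjusted p = 0.0277) and the fit without mouse 3 (0.53, adjusted p = 0.0268). Primary Hepatocytes were not called against Liver (-0.12 ± 0.23, adjusted p = 0.703). They were called lower than Cell Suspension, by -0.71 ± 0.23 (adjusted p = 0.0114), a difference that turned to 0.02 on the total-UMI scale and 0.09 with spliced UMIs alone, and the call was lost without mouse 4 (-0.60, adjusted p = 0.0568).

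The libraries' normalisation factors differed between sample types. By trimmed mean of M-values (TMM) their geometric means were 0.903 for Liver, 0.827 for Cell Suspension and 1.34 for Primary Hepatocytes. Scaling by total UMIs alone moved the median log2 change of all genes by -0.13 in Cell Suspension against Liver, by 0.56 in Primary Hepatocytes against Liver and by 0.69 in Primary Hepatocytes against Cell Suspension. The share of calls that were higher went from 36.5% to 19.9%, from 51.0% to 75.7% and from 53.4% to 80.2% in these comparisons, and with relative log expression (RLE) size factors it was 47.8%, 56.0% and 54.4%.

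Nfkbia encodes the inhibitor that holds NF-kB in the cytoplasm and is itself an NF-kB target. In hepatocyte nuclei its level ran from 11.2 to 21.3 CPM in Liver with a median of 13.6, from 8.96 to 40.1 CPM in Cell Suspension with a median of 25.2, and from 21.7 to 77.2 CPM in Primary Hepatocytes with a median of 60.1. In CPM every cultured sample lay above every Liver sample, by 21.7 against 21.3 where closest, and Cell Suspension overlapped both. That gap is too narrow to hold once CPM is divided by the normalisation factors. Nfkbia was higher in Cell Suspension than in Liver by 0.86 ± 0.27 on the log2 scale (adjusted p = 0.0189), in 6 of 8 mice. It was higher in Primary Hepatocytes than in Liver by 1.32 ± 0.27 (adjusted p = 8.26e-05), in 8 of 8 mice. Primary Hepatocytes against Cell Suspension gave 0.46 ± 0.26 (adjusted p = 0.155), but was called higher on the total-UMI scale (1.15, adjusted p = 3.36e-04) and without mouse 4 (0.74, adjusted p = 0.0246). With pool as a covariate neither rise was called, at 0.48 (adjusted p = 0.334) and 0.76 (adjusted p = 0.127), and the first was also lost without mouse 3 (0.74, adjusted p = 0.0715) or mouse 4 (0.77, adjusted p = 0.0505) and with spliced (0.56, adjusted p = 0.0858) or unspliced UMIs alone (0.87, adjusted p = 0.0658).

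Tnfaip3 encodes A20, an enzyme that edits ubiquitin chains and shuts down signalling to NF-kB. Levels spanned 0.832 to 2.43 CPM in Liver with a median of 1.22, 0.951 to 3.78 CPM in Cell Suspension with a median of 1.91, and 12.4 to 54.0 CPM in Primary Hepatocytes with a median of 31.4. The fresh groups overlapped each other and neither reached the lowest cultured sample. Tnfaip3 was higher in Primary Hepatocytes by 4.05 ± 0.29 against Liver (adjusted p = 3.32e-13) and by 3.28 ± 0.30 against Cell Suspension (adjusted p = 6.18e-11) on the log2 scale. Cell Suspension against Liver gave 0.76 ± 0.33 (adjusted p = 0.101), and was called higher by DESeq2 (0.82, adjusted p = 0.0438) and with all nuclei summed (1.03, adjusted p = 0.0206).

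Socs3 encodes the inhibitor that STAT3 induces against the IL-6 receptor. Socs3 ran from 1.77 to 9.67 CPM in Liver with a median of 6.23, from 21.9 to 214 CPM in Cell Suspension with a median of 113, and from 3.30 to 9.91 CPM in Primary Hepatocytes with a median of 5.50. Cell Suspension lay above every other sample, and Liver and Primary Hepatocytes overlapped over nearly their whole ranges. Socs3 rose in Cell Suspension against Liver by 4.37 ± 0.41 on the log2 scale (adjusted p = 1.93e-09), in 8 of 8 mice, and was lower in Primary Hepatocytes than in Cell Suspension by -4.93 ± 0.42 (adjusted p = 1.61e-11), in 8 of 8 mice. Primary Hepatocytes against Liver gave -0.56 ± 0.38 (adjusted p = 0.228). Only in the fit with pool as a covariate was that difference called, at -1.37 (adjusted p = 0.0301), a fit in which Cxcl1, Nfkbia and Il6ra were not called against Liver.

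The share of nuclei with at least 1 UMI followed the same order for Socs3. After thinning to 1000 UMIs per nucleus, leaving out 587, 932 and 293 shallower nuclei, the share in hepatocyte nuclei averaged 0.666% (Liver), 9.80% (Cell Suspension) and 0.665% (Primary Hepatocytes), and unthinned 5.40%, 31.6% and 3.44%. In endothelial nuclei of the same samples the thinned share was 0.345%, 6.12% and 2.03%, and the unthinned share 1.02%, 12.4% and 3.17%. For Cxcl1 the thinned share in hepatocyte nuclei was 1.87%, 10.8% and 7.16%, against 12.1%, 30.7% and 24.5% unthinned. In endothelial nuclei Cxcl1 was found in 0.436%, 2.27% and 7.17% after thinning and in 1.54%, 4.31% and 10.2% before it.

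Markers of other cells were also summed in the hepatocyte nuclei. For 12 Kupffer markers the median was 75.9 CPM in Liver samples, 71.6 CPM in Cell Suspension samples and 93.3 CPM after culture, and that of 12 endothelial markers 103, 112 and 166 CPM, with all markers of both lists detected. The 12 stellate markers had medians of 37.9, 37.5 and 179 CPM, with up to 646 CPM in 1 cultured sample. Leukocyte markers, 15 in all, ran from 14.3 to 36.4 CPM in Liver and from 45.6 to 74.4 CPM in culture. These did not overlap, nor did the endothelial markers (77.1 to 127 and 160 to 204 CPM) or the stellate markers (21.1 to 49.1 and 82.4 to 646 CPM), while 11 biliary markers had medians of 271 and 404 CPM with overlapping ranges. The part of such RNA in the member levels was not tested.

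Members of the same pathways, taken from lists of names, did not all follow the 10 genes. In Cell Suspension against Liver, 8.15% of all genes were called higher in hepatocyte nuclei, 14.2% lower and 22.3% in either direction, and the counts of each list stand beside these shares. Of 20 acute phase targets of IL-6, 13 were called higher and 0 lower in Cell Suspension hepatocyte nuclei, with a median log2 change of 1.44 beside 0.02 over all genes. Fgb, a fibrinogen chain, stood at 658 ± 296 CPM (SD, n = 8) in Liver and 2442 ± 920 CPM in Cell Suspension (log2 change 2.02 ± 0.28, adjusted p = 2.71e-06). Saa1 and Saa2, serum amyloid genes, rose by 2.56 ± 0.43 and 2.60 ± 0.46, and Lcn2, an iron-binding acute phase protein, by 2.95 ± 0.69. Of 43 genes of the IL-6 family, JAK-STAT and SOCS list, 5 were called higher and 4 lower, a share near that of all genes. Jak1, the kinase under the IL-6 receptor, was higher by 0.95 ± 0.14, while Socs4 and Socs5 were lower by -0.58 ± 0.12 and -0.66 ± 0.16. Of 35 NF-kB subunits and regulators, 3 were called higher, among them Nfkbiz, an inducible nuclear regulator, by 1.68 ± 0.24, and 4 lower, again near the share of all genes. Of 39 interferon genes tested, 8 were called higher and 1 lower, with a median of 0.33.

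After culture, the interferon list had 26 of 39 genes tested called higher and 6 lower in Primary Hepatocytes against Liver, where 27.4% of all genes were called higher, 26.3% lower and 53.7% in either direction, with a median of 1.68 beside 0.10 over all genes. Rsad2, an antiviral enzyme gene, stood at 6.65 ± 7.48 CPM (SD, n = 8) in Liver and 199 ± 92.6 CPM in Primary Hepatocytes (log2 change 4.24 ± 0.61, adjusted p = 5.40e-07). Of 35 NF-kB genes 17 were called higher and 7 lower. Relb and Nfkb2, the subunits of the alternative NF-kB pathway, rose by 4.63 ± 0.26 and 3.04 ± 0.26, while Chuk, a kinase of the IKK complex, and Ripk2, a kinase under the NOD receptors, were lower (-1.82 ± 0.10 and -1.68 ± 0.15). The IL-6 family list, with 14 of 43 higher and 13 lower, stood near the shares of all genes in both directions. Osmr, the oncostatin M receptor chain, rose by 5.53 ± 0.28 while Lifr, the receptor chain of leukemia inhibitory factor, fell by 5.02 on the log2 scale. Il1rap, the partner chain of the IL-1 receptor, fell from 680 ± 46.4 to 49.4 ± 9.69 CPM (log2 change -4.35 ± 0.13, adjusted p = 3.40e-21), and Irak3, an inhibitor of IL-1 signalling, rose by 4.68 ± 0.26. Of the 20 acute phase genes 10 were higher and 7 lower against Liver, and 6 higher and 10 lower against Cell Suspension, where 26.9% and 23.5% of all genes were. Against Liver, Lcn2 (6.15 ± 0.75), Saa2 (5.01 ± 0.49), Orm2 (4.80 ± 0.35) and Saa3 (4.67 ± 0.43) rose in culture. Fgb (-3.53 ± 0.30), Fgg (-3.85 ± 0.34), Fga (-3.27 ± 0.37) and Hamp, the iron regulator hepcidin (-4.68 ± 0.33), were lower in culture than in Cell Suspension.

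The remaining lists were counted in the same way in hepatocyte nuclei. Of 41 genes of TNF, IL-1 and Toll-like receptor signalling, 5 were higher and 4 lower in Cell Suspension against Liver, and 14 higher and 9 lower in Primary Hepatocytes against Liver, close in all to the 22.3% and 53.7% of all genes called in these comparisons. Of 22 other chemokine ligands tested, 1 was higher and 1 lower in Cell Suspension, and 7 were higher and 3 lower in Primary Hepatocytes. Cxcl12, a homing chemokine, fell from 272 ± 117 CPM (SD, n = 8) in Liver to 6.03 ± 2.52 CPM in culture (log2 change -6.09 ± 0.34, adjusted p = 8.10e-16). Of 20 chemokine receptors tested, 2 were higher and 3 lower in Cell Suspension and 6 higher and 6 lower in Primary Hepatocytes. In the latter Ackr3, a scavenging receptor, was higher by 6.13 ± 0.43. Ackr4, Ackr2 and Ccr9 were lower there (-2.25 ± 0.15, -2.20 ± 0.34 and -0.79 ± 0.12). The receptors were close to the same shares of all genes.

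Endothelial nuclei of the Cell Suspension showed Socs3, Cxcl10, Cxcl1 and Nfkbia above Liver. Of the 10 genes 4 were called higher, where 2.03% of all 18279 genes tested were, and 0 were called lower, where 1.87% were. Their median log2 change was 1.64, beside -0.08 over all genes. Socs3 ran from 0 to 6.02 CPM in Liver and from 26.6 to 154 CPM in Cell Suspension, with no overlap (log2 change 4.10 ± 0.37, adjusted p = 6.66e-11, 8 of 8 mice). Cxcl10 ran from 3.06 to 11.5 CPM in Liver and from 12.4 to 152 CPM in Cell Suspension, also with no overlap (3.18 ± 0.43, adjusted p = 1.74e-06). The value of 12.4 CPM rested on 3 UMIs. Nfkbia stood at 11.5 to 34.3 CPM and 26.6 to 126 CPM, overlapping but higher in 8 of 8 mice (1.78 ± 0.29, adjusted p = 5.44e-05). Its levels moved with the pools: Cell Suspension samples held 58.3 to 126 CPM in pools with cultured cells and 26.6 to 42.8 CPM in pools without, and Liver samples 33.6 to 34.3 CPM and 11.5 to 20.4 CPM. Nfkbia was not called in pools 1 and 6 alone (1.05, adjusted p = 0.528) or with spliced UMIs (0.93, adjusted p = 0.0599), but stayed called with pool as a covariate (1.27, adjusted p = 0.00351). Cxcl1 was higher by 1.83 ± 0.48 (adjusted p = 0.0177), a call lost without mouse 1 (1.81, adjusted p = 0.0612), without mouse 3 (1.49, adjusted p = 0.128) with pool as a covariate (1.42, adjusted p = 0.19) and in pools 1 and 6 alone (0.06). Cxcl2 was not called (2.98 ± 1.08, adjusted p = 0.125) on 10 and 3 UMIs, but was called with the mouse as a block (3.35, adjusted p = 0.0064). Of the 20 acute phase genes, 10 were called higher and 0 lower in these endothelial nuclei, beside the 2.03% and 1.87% of all genes, and the summed hepatocyte markers there had medians of 2889 CPM (Liver), 3838 CPM (Cell Suspension) and 2785 CPM (Primary Hepatocytes). The part of hepatocyte RNA in the endothelial values was not tested.

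In culture the endothelial nuclei held the ligands at higher levels. Their summed endothelial markers had medians of 14490 CPM in Liver and 6666 CPM in culture, and their summed biliary markers 144 CPM and 554 CPM, neither with any overlap, and the part of such shifts in the ligand levels was not tested. Of the 10 genes 7 were called higher than in Liver, beside 15.4% of all genes, and 0 lower, beside 18.4%, with a median log2 change of 2.54 beside -0.01 over all genes. Cxcl2 rested on 3 UMIs in all of Liver and 430 in culture, a ratio of the pooled CPM of 374 with a counting interval of 127 to 1821 (95%, exact). Its level ran from 0 to 1.20 CPM in Liver and from 9.09 to 209 CPM in Primary Hepatocytes, with no overlap. The value of 9.09 CPM was 1 UMI. Ccl2 ran from 0 to 3.73 CPM in Liver and from 4.64 to 136 CPM in Primary Hepatocytes, again with no overlap (log2 change 5.98 ± 0.54, adjusted p = 4.64e-12). Its 4.64 CPM was also 1 UMI, so both gaps end on a single molecule. Nfkbia reached 74.3 to 317 CPM, above every Liver sample (3.33 ± 0.26, adjusted p = 1.00e-13). Cxcl1 (3.31 ± 0.38), Cxcl10 (3.20 ± 0.42), Tnfaip3 (1.87 ± 0.38) and Socs3 (1.41 ± 0.49, adjusted p = 0.023) were called higher with overlapping ranges. With pool as a covariate Tnfaip3 (0.89, adjusted p = 0.225) and Socs3 (0.63, adjusted p = 0.447) were not, and Socs3, a call kept under 11 of 19 alternatives (adjusted p up to 0.66), was also lost without mouse 6, 7 or 8 (1.21 to 1.31). Against Cell Suspension 4 genes were higher, beside 9.33% of all genes, and 1 lower, beside 10.7%: Cxcl2 by 4.58 ± 0.53, Ccl2 by 4.48 ± 0.62, Nfkbia by 1.54 ± 0.26 and Cxcl1 by 1.48 ± 0.40, and Socs3 by -2.69 ± 0.38. Il1r1, Il6ra and Stat3 were called in no endothelial comparison, but Il6ra was called higher in Primary Hepatocytes than in Liver under 6 of 19 alternatives, among them the mouse as a block (0.67, adjusted p = 0.0321) and pool as a covariate (1.43, adjusted p = 9.88e-04). Il1r1 was called higher in Primary Hepatocytes under 1 of 19 alternatives against Liver and 2 of 19 against Cell Suspension, and Il6ra under 1 of 19 against Cell Suspension.

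**Figure D3:**
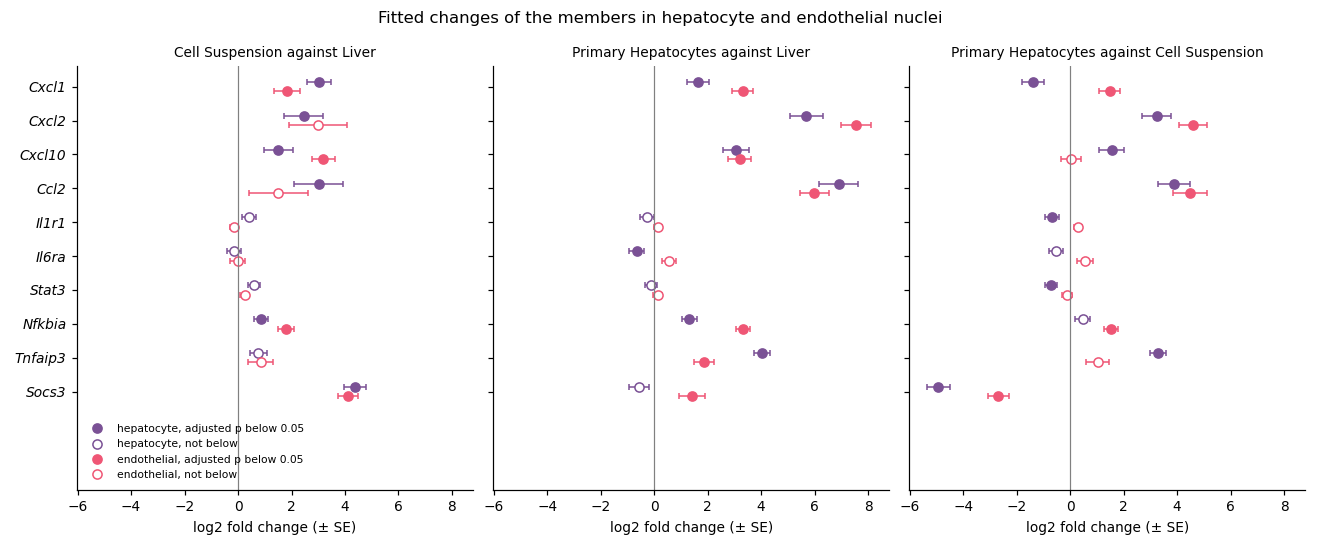
Log2 fold change of the 10 genes with its SE (bars) in hepatocyte and endothelial nuclei, 1 panel for each of the 3 comparisons and 1 row per gene, filled where the adjusted p was below 0.05 and open where it was not. In Cell Suspension against Liver, Socs3 lies at 4.37 in hepatocyte and 4.10 in endothelial nuclei, and in Primary Hepatocytes against Cell Suspension both of its points lie below 0.

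The 2 cell types were then compared by the difference of their changes, in a fit with each sample as a block since both types came from it. In Cell Suspension against Liver, 1 of the 10 genes differed, beside 2.64% of all genes in either direction: Nfkbia rose more in endothelial nuclei (difference of log2 changes 1.01 ± 0.27, adjusted p = 0.0179). That call was lost without mouse 1 (0.78, adjusted p = 0.154) and with filterByExpr (0.96, adjusted p = 0.0502). The Cxcl10 difference, 1.54 ± 0.50, was not called (adjusted p = 0.08), but stayed so under 5 of 12 alternatives, with an adjusted p down to 0.00622 in the others. For Primary Hepatocytes and Liver 6 differed, beside 26.8% of all genes. Cxcl1, Cxcl2, Il6ra, Nfkbia and Socs3 had the higher change in endothelial nuclei, by 1.68 ± 0.32, 2.39 ± 0.85, 1.06 ± 0.25, 1.82 ± 0.24 and 1.89 ± 0.46, and Tnfaip3 the lower, by -2.30 ± 0.37. Between Primary Hepatocytes and Cell Suspension 7 differed, beside 20% of all genes, with Cxcl1 at 2.72 ± 0.31, Socs3 at 2.00 ± 0.40 and Tnfaip3 at -2.36 ± 0.45, and 4 differed when libraries were scaled by total UMIs. On that scale 5868 of all 25615 genes differed.

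**Figure D4:**
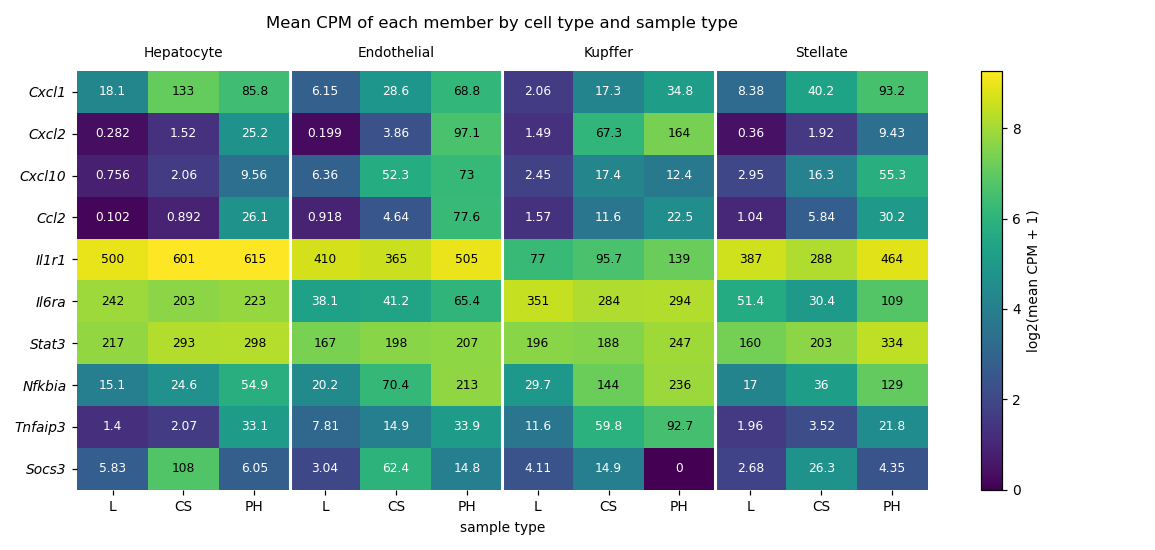
Heat map of the mean level of each of the 10 genes (rows) in CPM, printed in each cell and coloured as log2(mean CPM + 1), in hepatocyte, endothelial, Kupffer and stellate nuclei of Liver (L), Cell Suspension (CS) and Primary Hepatocytes (PH). Levels are not divided by gene length, so colours compare within a row. Kupffer nuclei of Primary Hepatocytes are from 3 samples, and Cxcl2 there had a mean of 164 CPM against 1.49 CPM in Liver Kupffer nuclei, on 14 and 6 UMIs. This difference was not tested, and the Kupffer name of the cultured nuclei rests on the deposited cluster.

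In Kupffer cells, the macrophages of the liver, Cxcl2, Tnfaip3, Nfkbia, Cxcl1 and Cxcl10 were called higher in Cell Suspension. Of the 10 genes 5 were called higher than in Liver, beside 1.08% of all 13819 genes, and 0 lower, beside 0.224%, with a median log2 change of 2.19 beside -0.17. Cxcl2 ran from 0 to 3.69 CPM in Liver and from 22.7 to 114 CPM in Cell Suspension, with no overlap and in 8 of 8 mice (log2 change 4.80 ± 0.49, adjusted p = 1.71e-09). Its Cell Suspension level was 46.6 and 93.3 CPM in the 2 samples pooled without cultured cells. The first was 1 UMI, and the pair held 12 UMIs. Tnfaip3 (2.96 ± 0.45, adjusted p = 1.84e-05) and Nfkbia (2.12 ± 0.30, adjusted p = 5.91e-06) rose too. Each of these 2 calls was kept under 15 of 16 alternatives, with an adjusted p up to 0.661 and 0.285. Cxcl1 (2.78 ± 0.69, adjusted p = 0.024) and Cxcl10 (2.46 ± 0.65, adjusted p = 0.0439) were called on 19 UMIs each in Cell Suspension, and 3 of the 10 were called with the mouse as a block or without mouse 1, where Cxcl1 gave 1.81 (adjusted p = 0.433) and Cxcl10 1.49 (adjusted p = 0.491). The blocked fit called 193 of all 13819 genes. Among other genes of the lists, Tnf, Il1b and Ccl4, all macrophage cytokines, were higher by 3.44 ± 0.75, 2.20 ± 0.34 and 4.23 ± 0.69. Il6ra was 351 ± 38.8 CPM (SD, n = 8) in Liver Kupffer nuclei and 284 ± 65.1 CPM in Cell Suspension, not called. Cultured Kupffer nuclei came from 3 samples with enough nuclei, 84974 UMIs in all, and were not tested. They held Nfkbia at 212, 236 and 259 CPM and Cxcl2 at 111, 135 and 247 CPM, on 20 and 14 UMIs in all. Their Kupffer markers summed to 1755 to 4514 CPM, below every Liver Kupffer sample (5964 to 10270 CPM), so their name rests on the deposited cluster.

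Stellate cells, the vitamin A storing cells of the sinusoid, were measured on 367948 UMIs over the 7 Cell Suspension samples used. Of the 10 genes 1 was called higher in Cell Suspension, beside 0.83% of all 14340 genes, and 0 lower, beside 1.44%. Of all calls there 36.6% were higher, against 85.8% with RLE size factors and 79.7% on the total-UMI scale. That gene was Socs3, at 0 to 5.76 CPM in Liver and 0 to 67.1 CPM in Cell Suspension (log2 change 2.84 ± 0.64, adjusted p = 0.00437), on 11 and 12 UMIs, and without mouse 4 it was not called (2.32, adjusted p = 0.0956). With the mouse as a block Cxcl1 was called as well (1.98, adjusted p = 0.0391).

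Splicing states were compared for the 6 genes with both spliced and unspliced UMIs. The 4 chemokine genes had no unspliced UMIs in any hepatocyte sample. For Cxcl1, Cxcl2 and Cxcl10 the annotation leaves no base that is only intronic once all transcripts are laid over each other, and for Ccl2 it leaves 745. In Cell Suspension against Liver 3 of 6 genes differed in their spliced against their unspliced change, beside 16.1% of all 22898 genes tested. Socs3 (difference -1.04 ± 0.23, adjusted p = 2.54e-04), Il1r1 (-0.50 ± 0.15) and Stat3 (-0.47 ± 0.15) had the smaller change in spliced UMIs relative to all genes, since spliced and unspliced libraries were each scaled to their own totals. As a share of the gene's own UMIs, the spliced part of Il1r1 and Stat3 was no smaller in Cell Suspension than in Liver on average. The spliced share of Socs3 UMIs averaged 86.5% for Liver, 79.3% for Cell Suspension and 88.8% for Primary Hepatocytes, while that of all genes was 18.0%, 24.8% and 26.2%. Between Primary Hepatocytes and Liver 2 of 6 differed, beside 21.6% of all genes, Il6ra by 0.45 ± 0.13 and Nfkbia by -0.57 ± 0.16. The Il6ra call held under 12 of 12 alternatives, but that of Nfkbia held under 4 of 12 (-0.70 to -0.10, adjusted p up to 0.687), and Il1r1 and Stat3, not called here, were called under 8 of 12 with a larger change in spliced UMIs. Dropping the filter to 1 count moved the median of all genes by 0.33 in this comparison, relative to which these values are read. Cultured nuclei against Cell Suspension gave 4 of 6 that differed, beside 18.2%, with Il1r1 at 0.80 ± 0.15, Stat3 at 0.70 ± 0.14, Socs3 at 0.85 ± 0.25 and Il6ra at 0.37 ± 0.14.

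**Figure D5:**
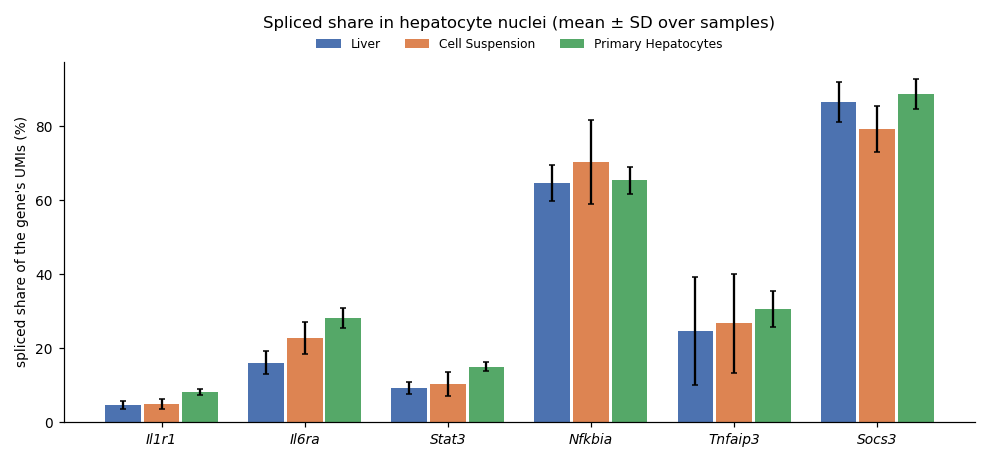
Percent of each gene's UMIs that were spliced in hepatocyte nuclei, as mean and SD over the 8 samples of each sample type, for the 6 genes with unspliced UMIs. The spliced share of Il1r1 was 4.60%, 4.88% and 8.08% and that of Stat3 9.19%, 10.3% and 15.0% in Liver, Cell Suspension and Primary Hepatocytes.

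Within the deposited clusters, given as description, the cultured hepatocyte nuclei were not alike. Cluster 0 held Ccl2 at 41.2 CPM and Il1r1 at 339 CPM, and cluster 1 held Ccl2 at 11.2 CPM and Il1r1 at 1020 CPM. Cluster 17, of 1279 nuclei, held Cxcl10 at 40.9, Cxcl2 at 65.8, Nfkbia at 106 and Socs3 at 21.2 CPM in its cultured nuclei. Among fresh nuclei, cluster 21, of which 96.9% came from the Cell Suspension of mouse 3, held Cxcl1 at 342 and Socs3 at 230 CPM, and cluster 15, of which 95.8% came from the Liver of the same mouse, held Cxcl1 at 55.7 CPM.

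Genes of most similar pattern were sought by Pearson's r of log2 CPM within sample type, over the 24 hepatocyte samples, as a description. Cxcl2 and Tnfaip3 were each other's closest match, with r = 0.89. Cxcl1 was nearest Txnrd1 (0.84) and Il13ra1 (0.81), and Ccl2 nearest Itgav and Ier3 (both 0.89). The samples behind each r share pools and depth with each other.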

How the data were processed

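Nuclei of 24 samples (8 mice, 3 sample types) were sequenced in 6 pools. The deposited matrices hold UMI counts per barcode, gene and splicing state, which the authors made with bcl2fastq 2.19.0, Salmon Alevin and Alevin-fry on a custom GRCm38 transcriptome of spliced and unspliced RNA. The authors' table gives each nucleus its sample by hashtag, its cluster and its cell type, and holds only nuclei called singlets by hashtag. Its label CD2 was read as CS2. Hashtag counts were not used. Cultured clusters, which the table does not type, were divided by marker lists. The members, lists and markers were chosen with earlier results of these data known.

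The counts of nuclei were summed per sample and cell type (at least 10 nuclei), and genes with at least 10 counts over the samples were tested with edgeR 4.0.16 (TMM, glmQLFit, glmQLFTest) in R 4.3.3, with Benjamini-Hochberg adjustment at 0.05. The spliced and unspliced fit left out genes with 0 UMIs in either state. DESeq2 1.42.0, other scalings, filters, blocks and left-out mice were alternatives. Sums, shares and intervals used Python 3.11.15, numpy 2.4.6, scipy 1.17.1 and pandas 2.3.3, and figures matplotlib 3.10.9. The scripts were tested on simulated data, in which the stellate fit called more unchanged genes than its threshold implies. Intervals and floors cover counting error only. From each list, up to 4 genes (2 in the smaller types) were eligible for naming, those called with the largest change and a mean of at least 5 CPM in a group.

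The 3 sample types of a number came from 1 mouse by the study's methods. Over 10829 genes, deviations of Liver and Cell Suspension correlated within a mouse (0.299 to 0.821, median 0.618, other mice -0.104, best with its own mouse in 7 of 8). The medians of Liver with Primary Hepatocytes (0.034) and of Cell Suspension with Primary Hepatocytes (0.021) did not differ in this way from other mice. The fit without the mouse block was the main one, and the blocked value is printed where a call changed.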

Additional observations from a re-analysis of the deposited data

Results flagged for a closer look

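Each gene was checked for a single high or low sample in 80 groups of 8 samples, and 15 groups held a sample set apart from the rest. Normally distributed values would give about 1 in 20, but levels on few UMIs are not so distributed, so the 2 rates are not compared. In hepatocyte nuclei the Liver sample of mouse 3 stood apart for Cxcl1 (50.3 CPM, next 20.9), Cxcl10 (2.30 CPM, next 1.02) and Stat3 (395 CPM, next 221). The Cell Suspension sample of mouse 3 did so for Cxcl1 (312 CPM, next 166). The Liver sample of mouse 5, which shared a pool with Primary Hepatocytes, stood apart for Cxcl2 (1.07 CPM on 31 UMIs) and Ccl2 (0.551 CPM on 16 UMIs), and the Primary Hepatocytes sample of mouse 8 for Cxcl10 (21.6 CPM). In endothelial nuclei these were Cxcl2 in the Liver of mouse 5 (1.20 CPM on 2 UMIs), Ccl2 (20.96 CPM on 3 UMIs) and Stat3 (377 CPM) in the Cell Suspension of mouse 3, and Il1r1 in the Primary Hepatocytes of mouse 4 (725 CPM). In Kupffer nuclei they were Ccl2 in the Cell Suspension of mouse 3 (53.7 CPM on 4 UMIs), Il6ra in the Liver of mouse 8 (439 CPM), Tnfaip3 in the Liver of mouse 6 (40.1 CPM on 3 UMIs) and Socs3 in the Cell Suspension of mouse 4 (82.4 CPM on 5 UMIs). What set these samples apart was not tested.

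For 14 of the changes, the endothelial and the hepatocyte value differed by edgeR's test of the difference itself, given as endothelial minus hepatocyte log2 change with its Benjamini-Hochberg adjusted p. In Cell Suspension against Liver it was Nfkbia (1.01, 0.0179). Against Liver, Primary Hepatocytes differed for Cxcl1 (1.68, 8.61e-06), Cxcl2 (2.39, 0.0262), Il6ra (1.06, 3.02e-04), Nfkbia (1.82, 3.80e-10), Tnfaip3 (-2.30, 1.34e-07) and Socs3 (1.89, 6.32e-04). Against Cell Suspension, Primary Hepatocytes differed for Cxcl1 (2.72, 1.22e-12), Cxcl10 (-1.53, 0.00196), Il1r1 (0.79, 0.00292), Il6ra (0.89, 0.0136), Nfkbia (0.82, 0.00883), Tnfaip3 (-2.36, 1.10e-05) and Socs3 (2.00, 3.19e-05). On the total-UMI scale Cxcl2 against Liver (2.11, adjusted p = 0.0769) and Il1r1 (0.37), Il6ra (0.48) and Nfkbia (0.39) against Cell Suspension were not called.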

How the results depend on the processing

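Of 2057 alternative values of single genes, 1875 kept the side of the threshold, 104 lost the call, 73 gained it and 5 turned direction with a call in either fit. Changes called in neither fit could turn and still count among the 1875. Il1r1 in hepatocyte nuclei, Cell Suspension against Liver, ran from -0.18 to 0.53 and was counted as kept under 22 of 22. The 5 that turned with a call were Cxcl2 in hepatocyte nuclei of pools 1 and 6 (-0.52, Cell Suspension against Liver), and Il1r1 and Stat3 in Primary Hepatocytes against Cell Suspension with spliced UMIs (0.19 and 0.0894) and on the total-UMI scale (0.0319 and 0.0221). Of 132 counts of genes, 103 stayed within 1.5 times. Nearly all were counts of genes called, and the few others counted genes by their share of nuclei or by free RNA, without a test. The total-UMI scale, pools 1 and 6, the removal of cluster 8 and the minimum of 50 endothelial nuclei were chosen after seeing the data. The causes of the shifts below were not tested, except that filterByExpr tested fewer genes and unspliced UMIs leave out the chemokines.

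In hepatocyte nuclei, Cell Suspension against Liver gave 2 calls with pool as a covariate, 2 with unspliced UMIs and 1 in pools 1 and 6. Over all genes these fits called 6591 of 26778, 5510 of 22594 and 1496 of 23190. With unspliced UMIs the hepatocyte counts were 3 (Primary Hepatocytes against Liver) and 5 (against Cell Suspension), beside 12092 and 11118 of all 22594 genes. In endothelial nuclei, Cell Suspension against Liver gave 2 with spliced UMIs, 2 with unspliced UMIs and 2 in pools 1 and 6, and unspliced UMIs gave 2 and 1 for Primary Hepatocytes against Liver and Cell Suspension. Over all genes the first 3 fits called 325 of 12685, 482 of 15349 and 55 of 15194. The last 2 called 4744 and 2678 of 15349. In Kupffer nuclei DESeq2 gave 3, filterByExpr 0, spliced UMIs 2, unspliced UMIs 2, and pools 1 and 6 2. Over all genes these called 192 of 13819, 86 of 3449, 82 of 8856, 93 of 11306 and 18 of 12121. In stellate nuclei RLE gave 2, DESeq2 2, filterByExpr 0, spliced UMIs 2 and unspliced UMIs 0. Over all genes these called 240 of 14340, 240 of 14340, 106 of 2101, 744 of 9203 and 172 of 11867. For the endothelial minus hepatocyte change, filterByExpr gave 0 and no filter 3 (Cell Suspension against Liver), and a fold limit of 1 on the log2 scale and total UMIs each 4 (Primary Hepatocytes against Cell Suspension). Over all genes filterByExpr called 700 of 17605, no filter 802 of 26357 and total UMIs 5868 of 25615. Calls over all genes were not counted with a fold limit. For splicing, the fold limit left 1, 0 and 0.

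With the mouse as a replicate block, the pairing check being given with the processing, the counts were 7, 7 and 8 in hepatocyte nuclei, 5, 8 and 5 in endothelial, 3 in Kupffer and 2 in stellate nuclei. Over all genes the block gave 6291, 14291 and 13383 of 26778 in hepatocyte and 686, 5569 and 3327 of 18279 in endothelial nuclei. It gave 193 of 13819 in Kupffer and 272 of 14340 in stellate nuclei. Among the members, the block changed the call of Stat3 (0.53) in hepatocyte, Cxcl2 (3.35) and Il6ra (0.67) in endothelial, Cxcl1 (2.36) and Cxcl10 (2.28) in Kupffer and Cxcl1 (1.98) in stellate nuclei, and no other.

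Leaving out each mouse in turn, the counts ranged from 3 to 6, 6 to 7 and 7 to 8 in hepatocyte nuclei, 3 to 4, 6 to 7 and 5 to 6 in endothelial, 3 to 5 in Kupffer and 0 to 1 in stellate nuclei (0 without mouse 4). The endothelial minus hepatocyte counts ranged from 0 to 3 (0 without mouse 1, 3 without mouse 7), 5 to 7 and 6 to 9, and the splicing counts from 2 to 4, 2 to 3 and 4 to 4. Calls over all genes were not counted for the fits that left out a mouse. Few UMIs limit Cxcl2, Cxcl10 and Ccl2 in fresh hepatocyte nuclei, and the chemokines and Socs3 in Kupffer and stellate nuclei.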
